A study of Mus musculus with 6 samples.

Results

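The genes that make, bind and break down hyaluronan were followed in MEFs, the connective tissue cells (fibroblasts) that grow out of mouse embryos in culture. The 9 genes were taken by gene symbol from the 17092 genes counted. They were chosen for their role, with earlier results of these data known. They were the synthases *Has1*, *Has2* and *Has3*, the binding proteins *Vcan* and *Tnfaip6*, the receptor *Cd44*, and the breakdown genes *Hyal1*, *Hyal2* and *Cemip*. RNA-seq was compared between MEFs of WT and *Aff3ir-ORF2-/-* mice, with 3 libraries of each genotype. The mice carry a global deletion of a reading frame of *Aff3ir*, which is nested in the *Aff3* gene, made with Cas9 in fertilised eggs, so the loss is not limited to a cell type or an age. The labels give no treatment and no embryonic age, and the study's methods describe culture in DMEM with serum. They do not say whether the libraries of a genotype came from separate embryos or cultures, so the p-values below measure the spread between these libraries, which may be technical.

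Hyaluronan is a very long, unsulfated chain of alternating sugars that synthases in the plasma membrane build from UDP-glucuronic acid and UDP-N-acetylglucosamine and push straight out of the cell. Outside the cell it is organised by proteins such as versican, is held at the surface by the receptor CD44, and is cut by hyaluronidases and by CEMIP into fragments that are taken up and digested in lysosomes. Fibroblasts are a main source of it in connective tissue, and its amount and chain length are known to change in wounds and in inflamed tissue.

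Estimated counts summed to between 17435133 and 17726034 in WT libraries and between 18209421 and 18252330 in *Aff3ir-ORF2-/-* libraries. Levels are given as CPM, counts scaled by TMM to a common library size. A gene is said to have risen or fallen where it differed at least 1.5-fold with an adjusted p under 0.05 in the quasi-likelihood test of edgeR, Benjamini-Hochberg adjusted over 13075 tested genes. *Aff3ir-ORF2-/-* replicate 2 stood apart from its group: over all tested genes its median absolute difference in log2 CPM from the other libraries of its genotype was 0.145 and 0.148, against 0.0939 between those other libraries and 0.0686 to 0.0774 among WT libraries. *Aff3*, the host gene, fell by 1.06 on the log2 scale (SE 0.09, adjusted p = 2.42e-05), and the deleted frame itself was not analysed here. Of 12 fibroblast markers, *Lum* (2.17), *Dcn* (0.65) and *Pdgfrb* (0.59) rose on the log2 scale and *Postn* fell by 1.04, the calls of *Dcn* and *Pdgfrb* being lost under some alternatives. The 3 of these markers with the most counts, *Fn1* (0.45), *Col1a1* (-0.49) and *Col1a2* (-0.41), differed by less than 1.5-fold, but without *Aff3ir-ORF2-/-* replicate 2 *Col1a1* (-0.66, adjusted p = 4.4e-08) and *Col1a2* (-0.60, adjusted p = 8.24e-08) passed both thresholds. The summed CPM of the list ran from 30490 to 30590 in WT and from 25450 to 32300 in *Aff3ir-ORF2-/-* libraries. All 15 tested macrophage markers of 16 listed rose, among them *Mrc1* (8.27), *Mpeg1* (6.85) and *Lyz2* (6.71), and their summed CPM was 19.0 to 22.2 in WT and 1212 to 2102 in *Aff3ir-ORF2-/-* libraries, at most 0.212% of the counts of a library. In WT, 4 of these markers had 0 counts in all libraries. All 6 smooth muscle markers rose too, with *Myh11* at 3.29, *Cnn1* at 1.71, *Acta2* at 0.84 and *Tagln* at 0.66 on the log2 scale, and a sum of 4178 to 4281 CPM in WT against 7128 to 7792 CPM. Among the other marker lists, *Msln* (2.20), *Upk3b* and *Lrrn4* (2.64) of 5 mesothelial, *Col2a1* (2.34) and *Comp* (2.86) of 3 chondrocyte, and *Kdr* (1.01) of 3 endothelial genes tested rose, *Sox9* fell by 1.00 and *Cdh5* by 0.90 (not with DESeq2, with limma voom, or without WT replicate 2 or 3 or *Aff3ir-ORF2-/-* replicate 1 or 2), and *Krt19* (-0.22), *Tek* (-1.28) and the single tested epithelial gene *Krt18* (0.04) did not pass the test. Their summed CPM was 24.6 to 26.5 in WT and 38.8 to 55.8 in *Aff3ir-ORF2-/-* libraries for mesothelial markers, 23.0 to 23.6 and 21.8 to 34.6 for chondrocyte markers, 6.79 to 7.28 and 7.73 to 14.0 for endothelial markers, and 4.06 to 4.87 and 3.33 to 4.56 for epithelial markers. What part these shifts in other cells' markers have in the hyaluronan results was not tested, and in bulk RNA fewer cells of a type and less RNA per cell cannot be told apart.

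The breakdown gene *Cemip* rose and the hyaluronidase *Hyal1* rose in *Aff3ir-ORF2-/-* MEFs, while the synthase *Has2* fell. All 9 genes passed the filter on low counts, and 3 of 9 (33.3%) passed both thresholds, 2 of them higher and 1 lower, against 21.6% of all tested genes (14.3% higher, 7.32% lower). An adjusted p under 0.05 alone was reached by 7 of the 9, against 56.9% of all tested genes. In 7 of the 9 every library of one genotype lay on the same side of the other genotype in CPM, as in 66% of all tested genes. Most tested genes thus differed in this sense, and the counts alone do not set the 9 genes apart. The median log2 fold change was 0.34 over the 9 genes and 0.01 over all tested genes.

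**Figure D1:**
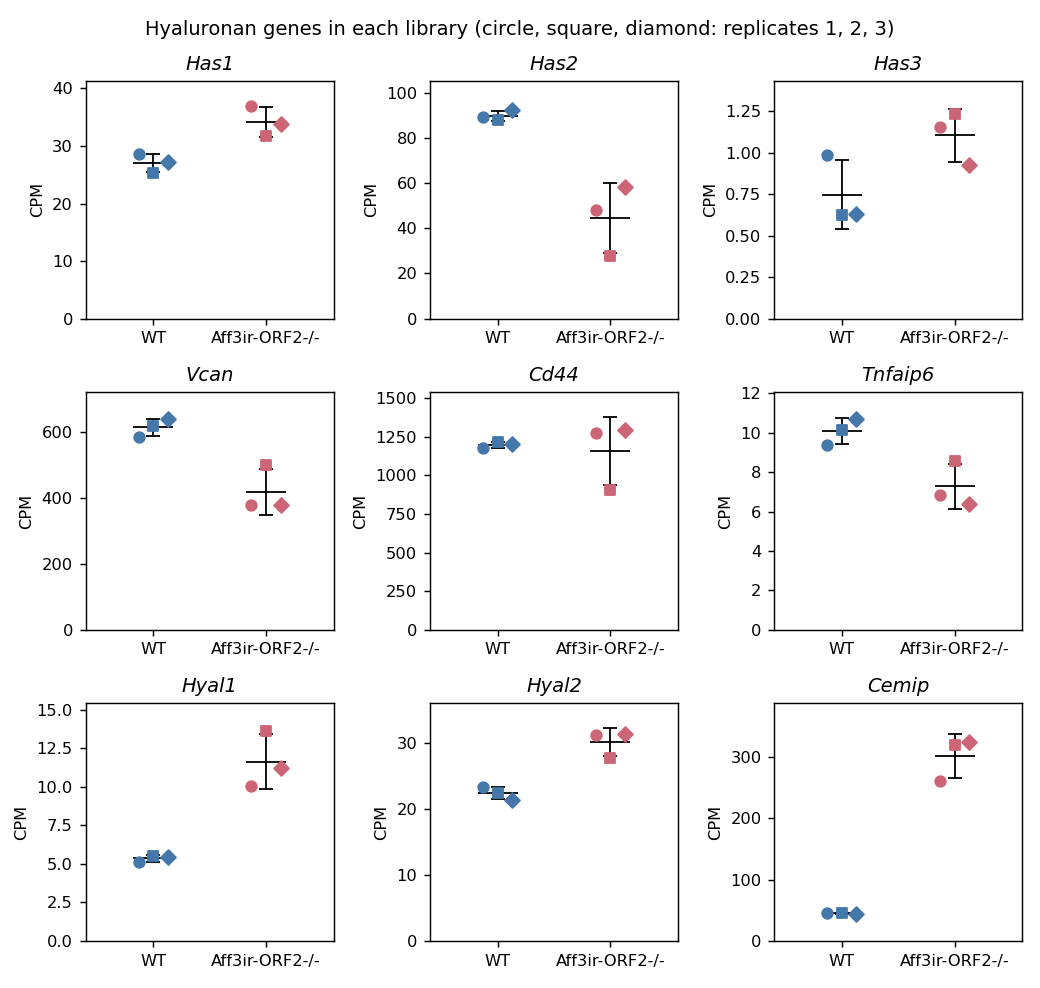
CPM of each of the 9 hyaluronan genes (y axis, from 0) in WT and *Aff3ir-ORF2-/-* libraries (x axis), with 1 point per library, shaped by replicate, and the mean and SD of 3 libraries as a line and bars. *Cemip* lies near 45 CPM in WT and at 261 CPM or more in every *Aff3ir-ORF2-/-* library, *Has2* is lower in all 3 of them, and *Cd44* and *Has3* overlap between genotypes.

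The synthases are membrane enzymes that differ in activity and in the length of the chain they make, HAS2 being the form that development and most connective tissue cells depend on. *Has2* (NCBI Gene ID 15117) had 89.0, 87.9 and 92.3 CPM in WT (replicates 1, 2 and 3) and, in the same order, 47.9, 27.6 and 58.3 CPM in *Aff3ir-ORF2-/-* MEFs. The WT libraries were close together, and the *Aff3ir-ORF2-/-* libraries were spread over more than a 2-fold range, all below WT. *Has2* averaged 89.7 ± 2.31 CPM in WT and 44.6 ± 15.6 CPM in *Aff3ir-ORF2-/-* MEFs (SD, n = 3), a log2 fold change of -1.01 (SE 0.21, 95% interval -1.48 to -0.54, adjusted p = 0.00313). Without *Aff3ir-ORF2-/-* replicate 2, the lowest, it was -0.76 (adjusted p = 2.42e-06). The interval reaches past the 1.5-fold line at -0.58, and *Has2* did not pass a test against a 1.5-fold change.

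*Has1* (15116) had 28.6, 25.4 and 27.2 CPM in WT and 37.0, 31.7 and 33.8 CPM in *Aff3ir-ORF2-/-* replicates 1, 2 and 3. Every *Aff3ir-ORF2-/-* library lay above every WT library, but the log2 fold change of 0.34 (SE 0.08, adjusted p = 0.00474) was under 1.5-fold. In RefSeq *Has1* overlaps *Spaca6*, a sperm membrane protein gene with a log2 fold change of 0.52 (SE 0.08, adjusted p = 0.00056), and none of the 6 deposited values of *Has1* was a whole number, so that reads shared between these genes may have been split and the value of *Has1* is uncertain. *Has3* (15118), which makes shorter chains, was barely detected, with 17, 11 and 11 counts in the WT libraries and 21, 23 and 17 in those of *Aff3ir-ORF2-/-* MEFs. The genotypes met at 17 counts and overlapped in CPM, and the log2 fold change of 0.56 had a 95% interval from -0.10 to 1.22 (adjusted p = 0.128).

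**Figure D2:**
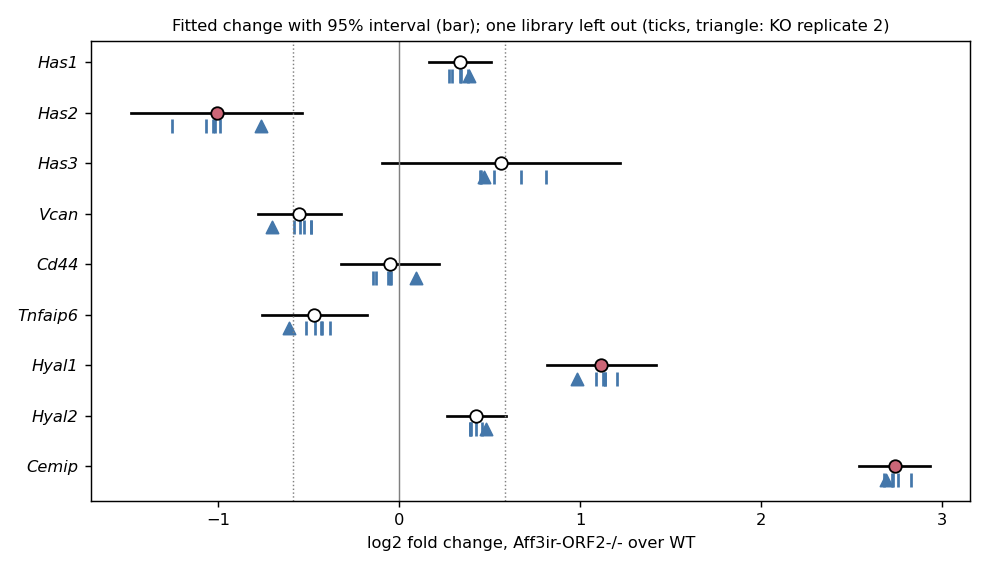
Fitted log2 fold change of *Aff3ir-ORF2-/-* over WT (x axis) for each gene (y axis), as a circle with its 95% interval, filled where both thresholds were passed. Blue ticks are the fits without 1 library each, with a triangle for the fit without *Aff3ir-ORF2-/-* replicate 2, and dotted lines mark 1.5-fold. *Cemip* stays between 2.68 and 2.83 whichever library is left out, and *Cd44* moves from -0.05 to 0.09 without replicate 2.

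To compare synthases with each other, CPM was divided by the length of the longest protein-coding GENCODE transcript. In WT, *Has2* stood at 21.2 ± 0.545 CPM per kb and *Has1* at 12.9 ± 0.772. In *Aff3ir-ORF2-/-* MEFs the order was the other way round, with *Has1* at 16.3 ± 1.26 and *Has2* at 10.5 ± 3.68 CPM per kb (SD, n = 3). The order held in every library of each genotype. *Has2* made up 60.3%, 62.9% and 62.5% of the summed synthase level per kb in WT replicates 1 to 3, and 38.8%, 29.8% and 45.7% in *Aff3ir-ORF2-/-* replicates. *Has1* took nearly all of the remainder, 37.7 ± 1.30% in WT and 61.2 ± 7.78% in *Aff3ir-ORF2-/-* MEFs, and *Has3* stayed below 1% of the sum in every library. Which synthase led depended on whether transcript length (2095 bases for *Has1*, 4237 for *Has2*) was taken into account: in CPM, not divided by length, *Has2* remained ahead on average, at 76.4% in WT and 54.6% in *Aff3ir-ORF2-/-* MEFs. The ratio of *Has2* to *Has1* CPM, whose difference between genotypes needs no length, was 3.11, 3.46 and 3.40 in WT and 1.30, 0.870 and 1.72 in *Aff3ir-ORF2-/-* libraries. The order, these shares and the ratio all rest on the value of *Has1*, which is uncertain as given above. They were not tested.

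**Figure D3:**
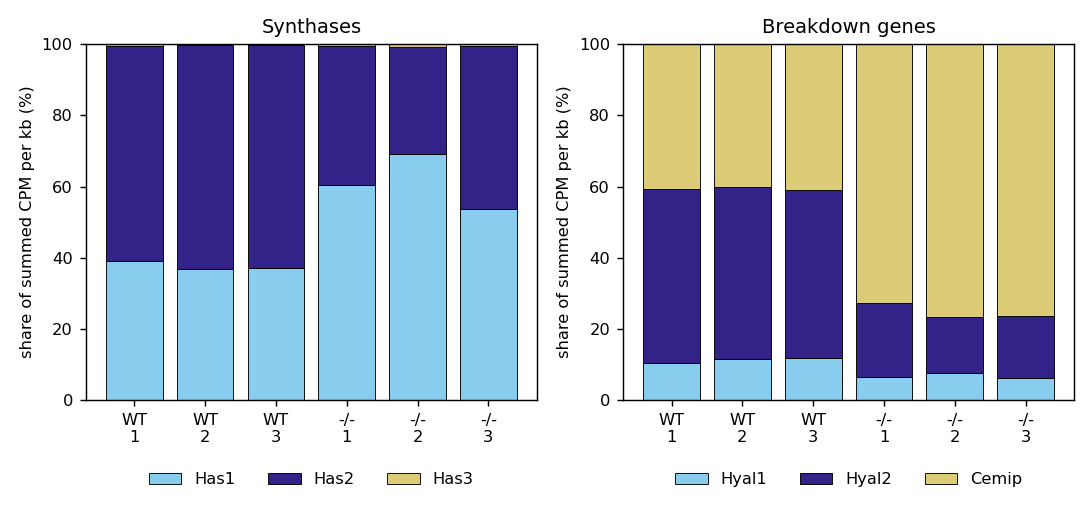
Share of the summed CPM per kb (y axis, percent) of the 3 synthases (left) and of the 3 breakdown genes (right) in each library (x axis, WT and *Aff3ir-ORF2-/-* replicates 1 to 3). *Has2* holds 60.3% to 62.9% of the synthase level in WT and 29.8% to 45.7% in *Aff3ir-ORF2-/-* libraries, and *Cemip* goes from about 41% of the breakdown level to between 72.6% and 76.6%.

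The UDP-sugars that the synthases consume come from a short pathway, all 7 of whose listed genes were tested. *Ugdh*, the dehydrogenase that makes UDP-glucuronic acid, rose with a log2 fold change of 0.63 (SE 0.14, adjusted p = 0.00457). It had 3416, 3290 and 3548 counts in the WT libraries and 5685, 4306 and 6779 in those of *Aff3ir-ORF2-/-* MEFs, and it lay at 0.47, under the fold threshold, without *Aff3ir-ORF2-/-* replicate 3. Each *Aff3ir-ORF2-/-* library thus lay above WT for *Ugdh* and below WT for *Has2*. *Gfpt1*, the entry enzyme of the hexosamine pathway, differed by 0.33 (SE 0.05, adjusted p = 0.000372), under 1.5-fold. No gene of this supply list fell, and 1 of the 7 (14.3%) was called, against 21.6% of all tested genes. An adjusted p under 0.05 was reached by 5 of the 7, all with a positive change, against 56.9% of all tested genes. The list's median was 0.25.

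Hyaluronan in the matrix is bound by versican, a large chondroitin sulfate proteoglycan, and by TSG-6, the *Tnfaip6* product, which moves heavy chains of inter-alpha-inhibitor onto hyaluronan. *Vcan* (13003) had 585, 618 and 638 CPM in WT and 378, 499 and 379 CPM in *Aff3ir-ORF2-/-* replicates 1, 2 and 3. All *Aff3ir-ORF2-/-* libraries lay below WT, with replicate 2 nearest to it. *Vcan* averaged 613 ± 26.3 CPM in WT and 419 ± 69.4 CPM in *Aff3ir-ORF2-/-* MEFs (SD, n = 3), and its log2 fold change of -0.55 (SE 0.10, adjusted p = 0.00171) came to 1.47-fold, just under the fold threshold. *Tnfaip6* (21930) also had its *Aff3ir-ORF2-/-* libraries below WT and replicate 2 nearest to it, with 9.40, 10.1 and 10.7 CPM in WT and 6.86, 8.59 and 6.38 CPM in *Aff3ir-ORF2-/-* libraries. The log2 fold change of *Tnfaip6* came to -0.47 (SE 0.13, 95% interval -0.76 to -0.18, adjusted p = 0.0128). Without *Aff3ir-ORF2-/-* replicate 2, both genes passed both thresholds, *Vcan* at -0.70 (adjusted p = 6.53e-08) and *Tnfaip6* at -0.61 (adjusted p = 0.000795).

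*Cd44* (12505), the main cell surface receptor for hyaluronan, was the most abundant of the 9 genes per kb in both genotypes, at 213 ± 3.46 CPM per kb in WT and 206 ± 39.0 in *Aff3ir-ORF2-/-* MEFs (SD, n = 3). Its CPM was 1176, 1213 and 1206 in WT and 1272, 903 and 1293 in *Aff3ir-ORF2-/-* replicates 1, 2 and 3. Replicate 2 lay below all WT libraries and the other *Aff3ir-ORF2-/-* libraries above them, so that no difference between genotypes passed the test (log2 fold change -0.05, 95% interval -0.32 to 0.22, adjusted p = 0.728). Without replicate 2 the log2 fold change was 0.09 (SE 0.03, adjusted p = 0.0143). Counts per gene do not separate the splice forms of *Cd44*.

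Hyaluronan fragments are made outside lysosomes by CEMIP, a secreted or surface protein needed for hyaluronan depolymerisation by fibroblasts, and by HYAL2, which is anchored to the cell surface, and are cut further by HYAL1 in lysosomes. *Cemip* (80982) had 46.3, 44.9 and 44.5 CPM in WT and 261, 320 and 325 CPM in *Aff3ir-ORF2-/-* replicates 1, 2 and 3. The WT libraries were nearly equal, and the lowest *Aff3ir-ORF2-/-* library lay far above them. *Cemip* averaged 45.2 ± 0.939 CPM in WT and 302 ± 36.0 CPM in *Aff3ir-ORF2-/-* MEFs (SD, n = 3), a 6.68-fold rise (log2 fold change 2.74, SE 0.09, 95% interval 2.54 to 2.94, adjusted p = 3.69e-07). Its paralog *Cemip2*, a cell surface protein also linked to hyaluronan turnover, was chosen after its values were seen and had 1003, 990 and 986 counts in the WT libraries and 777, 757 and 960 in those of *Aff3ir-ORF2-/-* MEFs. The log2 fold change of *Cemip2* was -0.33 (SE 0.09, adjusted p = 0.0108), opposite in sign to that of *Cemip* and under 1.5-fold.

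*Hyal1* (15586) had 5.10, 5.52 and 5.44 CPM in WT and 10.05, 13.6 and 11.2 CPM in *Aff3ir-ORF2-/-* libraries, with 88 to 97 and 183 to 253 counts behind them. The genotypes were well apart, and *Hyal1* rose 2.17-fold (log2 fold change 1.12, SE 0.13, 95% interval 0.82 to 1.42, adjusted p = 0.000149). *Hyal2* (15587) had 23.3, 22.4 and 21.4 CPM in WT and 31.1, 27.6 and 31.3 CPM in *Aff3ir-ORF2-/-* libraries. It did not overlap between genotypes either, but its log2 fold change of 0.43 (SE 0.07, 95% interval 0.26 to 0.59, adjusted p = 0.00105) was under 1.5-fold. *Hyal1* and *Hyal2* are neighbours in the genome, in a dense cluster where *Hyal1* overlaps *Naa80* and *Hyal3* in RefSeq. *Naa80*, which encodes the enzyme that acetylates actin, also rose (log2 fold change 0.77, SE 0.12, adjusted p = 0.000871), as did *Tusc2* on the other side of *Hyal2* (0.64, SE 0.10, adjusted p = 0.0006), *Tusc2* falling under the fold threshold at 0.57 without *Aff3ir-ORF2-/-* replicate 2. Of the 6 deposited values of *Hyal1*, 5 were not whole, as were 5 of those of *Naa80*, so reads of these genes may have been divided between them and the rise of *Hyal1* is less certain than its p-value alone shows. Macrophage markers rose over the same libraries, as given above, and their part in the rise of *Hyal1* was not tested.

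Per kb, *Hyal2* at 7.53 ± 0.322 and *Cemip* at 6.36 ± 0.133 were the leading breakdown genes in WT, and *Hyal1* stood at 1.78 ± 0.0731 CPM per kb. In *Aff3ir-ORF2-/-* MEFs *Cemip* stood at 42.5 ± 5.07, *Hyal2* at 10.1 ± 0.711 and *Hyal1* at 3.86 ± 0.596 CPM per kb (SD, n = 3). *Cemip* thus went from 40.6 ± 0.381% to 75.1 ± 2.18% of the summed breakdown level per kb. Without division by length, the shares of *Cemip* were 62.0% and 87.8%, so that it led in CPM in both genotypes. Among all 9 genes *Cemip* moved from sixth place per kb in WT, where it overlapped *Tnfaip6* (5.89 ± 0.383), to second place in *Aff3ir-ORF2-/-* MEFs, where it overlapped *Vcan* (33.7 ± 5.58, against 49.4 ± 2.12 in WT). *Has2* overlapped *Hyal2*, and *Hyal1* overlapped *Tnfaip6* (4.26 ± 0.679), in *Aff3ir-ORF2-/-* MEFs, and the other neighbours in the order did not overlap in either genotype. At the RNA level, the ratio of *Cemip* to *Has2* CPM was 0.520, 0.511 and 0.482 in WT and 5.45, 11.6 and 5.59 in *Aff3ir-ORF2-/-* libraries. Its mean in *Aff3ir-ORF2-/-* libraries was 14.97 times that of WT, a mean raised by replicate 2, at 11.6. The pair sets the member that rose most over the only one that fell. The ratio leaves out *Has1*, and neither hyaluronan nor enzyme activity was measured. The difference in this ratio was not tested.

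The promoters of *Cemip* and *Hyal1*, the members that rose, are shown because they differ in base composition and in which core promoter letters they hold. RefSeq promoters on GRCm38.p6 were matched for 7 of the 9 genes, all but *Has2* and *Has3*, and 4 motifs were looked for on both strands in the 250 bases before the start. One was the TATA box, TATAAA. Another was the GC box, searched as GGGCGG. The third was the CCAAT box, searched under the letters of its name, and the last was the AP-1 element, TGANTCA. Capitals in the lines below mark the TATA, GC and CCAAT boxes on either strand. Here the GC boxes and the CCAAT box lie on the opposite strand and are therefore seen as their reverse complement. The window of *Cemip* lies at chr7:84086506-84086755 on the minus strand and that of *Hyal1* at chr9:107576700-107576949 on the plus strand. Each is written 5′ to 3′ on the strand of the gene.
Cemip: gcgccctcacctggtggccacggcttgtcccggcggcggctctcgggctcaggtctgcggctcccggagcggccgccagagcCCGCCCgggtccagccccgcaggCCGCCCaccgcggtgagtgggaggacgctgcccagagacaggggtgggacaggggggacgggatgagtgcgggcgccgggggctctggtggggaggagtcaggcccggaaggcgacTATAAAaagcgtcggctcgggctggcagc
Hyal1: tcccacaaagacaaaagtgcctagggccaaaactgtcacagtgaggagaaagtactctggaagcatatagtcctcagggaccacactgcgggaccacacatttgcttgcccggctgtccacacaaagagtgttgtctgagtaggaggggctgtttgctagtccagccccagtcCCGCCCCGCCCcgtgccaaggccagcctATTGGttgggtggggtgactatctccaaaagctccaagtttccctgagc
The *Cemip* promoter has 75.2% G and C and holds a TATA box 29 bases before the start, as do 12.4% of all 32851 promoters somewhere in this window, and *Cemip* was the only one of the 7 with it. It holds GC boxes 168 and 145 bases before the start. The *Hyal1* promoter has 56.0% G and C, no TATA box, 2 overlapping GC boxes 77 and 72 bases before the start, and a CCAAT box 49 bases before it. A GC box was found in 5 of the 7 promoters and in 32.7% of all, a CCAAT box in 4 of the 7 (*Has1*, *Hyal1*, *Tnfaip6* and *Vcan*) and in 33.8% of all, and the AP-1 element in *Tnfaip6* alone and in 6.75% of all. These matches describe the letters and were not tested for use.

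Beyond the 9 genes, 6 lists of hyaluronan-related genes held 59 tested genes, of which 13 rose and 3 fell (27.1% called, against 21.6% of all tested genes). Of these 59, 38 had an adjusted p under 0.05 and 41 did not overlap between genotypes, near the 56.9% and 66% of all tested genes, and their median log2 fold change was 0.11. Other hyaluronan-binding proteins held 6 of these 16 calls. Of 25 such genes listed, 23 were analysed here, 11 were tested and 12 were too low to test. Of the 11, 5 rose and 1 fell (54.5% called, against 21.6% of all tested genes), with a median of 0.71. An adjusted p under 0.05 was reached by 7 of the 11, against 56.9% of all tested genes. In 7 of the 11 the genotypes did not overlap, against 66% of all tested genes. *Stab1*, which encodes the scavenger receptor stabilin-1 with a link-type hyaluronan-binding fold, had 7, 9 and 8 counts in the WT libraries and 770, 1305 and 1313 in those of *Aff3ir-ORF2-/-* MEFs (log2 fold change 7.04, SE 0.32, adjusted p = 2.11e-06). Stabilin-1 is made by macrophages, whose markers rose over the same libraries, and their part was not tested. *Lyve1*, another link-domain receptor, stayed between 0 and 7 counts, and the cartilage link protein gene *Hapln1* between 5 and 7.

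Of the genes whose products act with TSG-6, *Itih2* and *Ptx3* rose, and *Itih1*, *Itih3*, *Itih4* and *Ambp* were too low to test. *Itih2*, a heavy chain that TSG-6 transfers to hyaluronan, had 34, 37 and 36 counts in the WT libraries and 140, 136 and 149 in those of *Aff3ir-ORF2-/-* MEFs, a log2 fold change of 1.91 (SE 0.13, adjusted p = 8.30e-06). *Ptx3*, the pentraxin that binds TSG-6 and heavy chains and crosslinks hyaluronan in the matrix around the egg, had 1821, 1835 and 1739 counts in the WT libraries and 3251, 3487 and 4965 in those of *Aff3ir-ORF2-/-* MEFs, a log2 fold change of 1.04 (SE 0.14, adjusted p = 0.000309). Both were higher in every *Aff3ir-ORF2-/-* library, whereas *Tnfaip6* was lower in every one. *Itih5*, a related heavy chain gene, rose by 1.18 (adjusted p = 0.00944) at 11 to 49 counts, and *Hapln4*, a link protein gene outside the naming rule, by 0.71 (adjusted p = 0.04996), the latter not without *Aff3ir-ORF2-/-* replicate 2 or any 1 of the WT libraries, nor with DESeq2 or without the filter on low counts. *Acan*, the aggrecan gene, fell by 1.14 (adjusted p = 0.0282) from 28, 36 and 39 counts to 6, 21 and 22, and its adjusted p was 0.0796 without WT replicate 2 and 0.0961 without WT replicate 3. *C1qbp*, which had the most counts of this list in WT and encodes a mostly mitochondrial protein also described as binding hyaluronan, differed by -0.34 (adjusted p = 0.00114), under 1.5-fold.

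**Figure D4:**
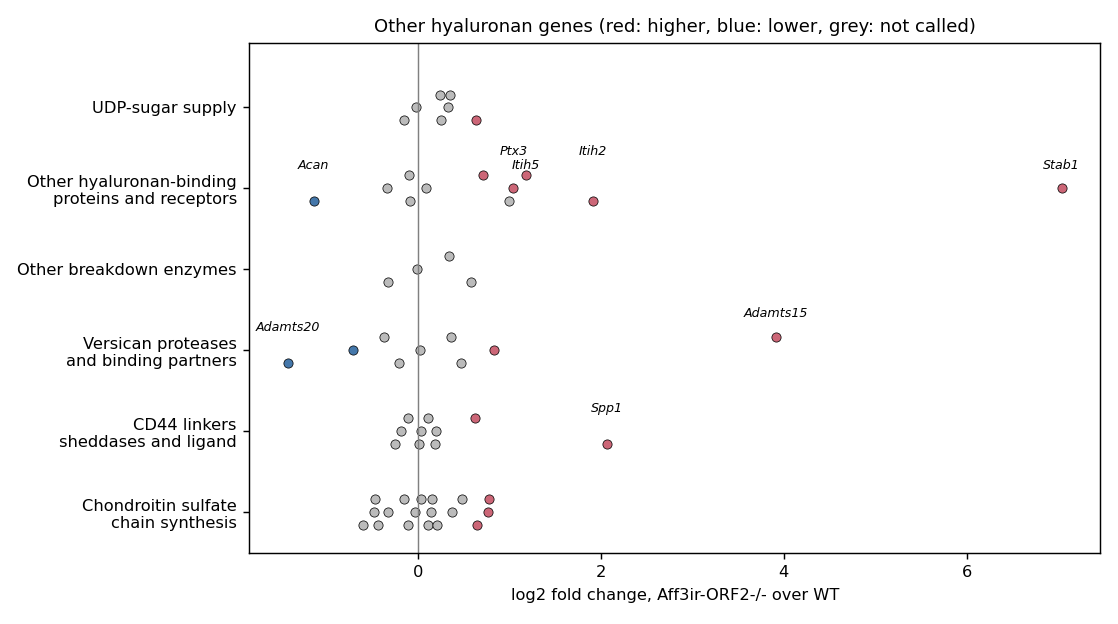
Log2 fold change of *Aff3ir-ORF2-/-* over WT (x axis) of each tested gene in 6 hyaluronan-related lists (y axis), spread vertically within a list for legibility. Red points rose and blue points fell past both thresholds, and grey points did not, and genes with the largest changes are named. *Stab1* at 7.04 and *Adamts15* at 3.92 lie furthest to the right, and most points of the other lists lie within 1 of 0.

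Versican is cut by ADAMTS proteases and tied to elastic fibres by fibulins and fibrillin. Of 10 listed genes, 9 were tested, 2 rose and 2 fell (44.4% called, against 21.6% of all tested genes). An adjusted p under 0.05 was reached by 7 of the 9, against 56.9% of all tested genes. Of these 7, 4 had a positive and 3 a negative change. *Adamts15* had 4, 3 and 5 counts in the WT libraries and 18, 73 and 106 in those of *Aff3ir-ORF2-/-* MEFs (log2 fold change 3.92, SE 0.73, adjusted p = 0.00188). *Adamts4*, another protease of this group, had 282, 288 and 286 counts in the WT libraries and 418, 789 and 399 in those of *Aff3ir-ORF2-/-* MEFs (log2 fold change 0.83, adjusted p = 0.0148), and 0.44 without replicate 2, under the fold threshold. Without WT replicate 1 its adjusted p was 0.0535, and none of its 6 deposited values was whole. *Adamts20* fell by 1.42 on the log2 scale (adjusted p = 0.00323) at 6 to 19 counts. *Fbln1*, a fibulin that is itself bound by versican, fell by 0.72 (SE 0.08, adjusted p = 7.67e-05), from 1293, 1288 and 1306 counts to 755, 951 and 789, with replicate 2 nearest to WT as for *Vcan*. The highly counted *Fbln2* (0.02, adjusted p = 0.782) and *Fbn1* (-0.21, adjusted p = 0.183) did not pass the test, and the median of the list was 0.02.

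Osteopontin, the *Spp1* product, is a ligand of CD44 and integrins. *Spp1* rose from 7954, 8311 and 8264 counts in WT to 30740, 46417 and 31288 in *Aff3ir-ORF2-/-* libraries, a log2 fold change of 2.06 (SE 0.14, adjusted p = 8.00e-06). *Spp1* is expressed by macrophages as well as by mesenchymal cells, and the part of either was not tested. Of the 11 listed linkers, sheddases and ligands of CD44, 10 were tested and 2 (20%) were called, against 21.6% of all tested genes. *Esrp2*, a splicing regulator of epithelial cells, was the only other one to rise (0.62, adjusted p = 0.0115). Its call was lost without WT replicate 2 or without *Aff3ir-ORF2-/-* replicate 3, and 5 of its 6 deposited values were not whole. *Msn*, which ties CD44 to actin and had the most counts of the list in WT, was at 0.03 (adjusted p = 0.605), and the list's median was 0.07.

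The lysosomal enzymes that finish hyaluronan digestion, listed with further hyaluronidases, gave no call, against 21.6% of all tested genes called. Of 9 genes listed, 6 were analysed here and 4 were tested, with a median of 0.16. An adjusted p under 0.05 was reached by 3 of the 4, against 56.9% of all tested genes. *Hexa*, a subunit of beta-hexosaminidase, stood nearest to the fold threshold, with 2428, 2487 and 2467 counts in the WT libraries and 3660, 4267 and 3733 in those of *Aff3ir-ORF2-/-* MEFs (1.496-fold, log2 fold change 0.58, SE 0.06, adjusted p = 4.79e-05). It passed that threshold with upper quartile or total count scaling, with a stricter count filter, and without *Aff3ir-ORF2-/-* replicate 1 or 3. *Gusb*, the beta-glucuronidase, was at -0.02 (adjusted p = 0.766), with overlapping genotypes and a sign that turned under other scalings. *Hyal3* reached at most 5 counts and *Hyal6* at most 1.

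Chondroitin sulfate chains, which versican carries, need a longer set of enzymes. Of 20 listed genes, 18 were tested and 3 rose (16.7% called, against 21.6% of all tested genes), with none falling and a median of 0.06. An adjusted p under 0.05 was reached by 11 of the 18, against 56.9% of all tested genes. Of these 11, 7 had a positive and 4 a negative change. *Chpf2*, a chain polymerising factor, rose by 0.76 (SE 0.05, adjusted p = 4.93e-06), from 1419, 1504 and 1451 counts to 2465, 2735 and 2631. The sulfotransferase genes *Chst12* (0.64, adjusted p = 0.000145) and *Chst7* (0.77, adjusted p = 0.00505) rose as well. *Dse*, the epimerase that turns chondroitin into dermatan sulfate, differed by 0.14 (adjusted p = 0.0381), under 1.5-fold.

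For the gene with the most counts in each role, the genes with the most similar pattern over the 6 libraries were found among 9672 genes of average log2 CPM 3 or more, by the root mean square difference of log2 CPM after centring each gene on its mean. Nearest to *Has2* were *Rgs16* (0.0735), a regulator of G protein signalling, *Ptgs2* (0.0785), the inducible prostaglandin synthase, and *Rrm2* (0.0988), a subunit of ribonucleotide reductase. Their own log2 fold changes were -1.08, -1.13 and -0.87. Nearest to *Cemip* were *Icam1* (0.0638), an adhesion molecule for leukocytes, *Tlr7* (0.135), a receptor for single-stranded RNA, and *Igfbp2* (0.14), a binding protein of insulin-like growth factors, with log2 fold changes of 2.79, 2.57 and 2.53. Nearest to *Cd44* were *Itpripl2* (0.0182), *Thsd7a* (0.0255) and *Selenoh* (0.0366), with log2 fold changes of -0.04, -0.01 and -0.08, all of which, like *Cd44*, turned positive without *Aff3ir-ORF2-/-* replicate 2, *Thsd7a* also under other scalings and a stricter filter. These are descriptions over 6 libraries and were not tested. Macrophage and smooth muscle markers rose over the same libraries, as given above, and their part in these patterns was not tested.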

How the data were processed

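MEFs of both genotypes, 3 RNA-seq libraries each, were compared, with groups and replicate numbers taken from the sample titles. The authors deposited a table of estimated counts, without normalization, from DNBSEQ reads filtered with SOAPnuke. The labels name the genome build mm8, and the aligner, counting tool and annotation are not given in the sources used here. Estimated counts were rounded to whole numbers. In each library 10.6% to 11.3% of values were not whole. Among genes that rose these included all 6 values of *Tagln* and *Adamts4* and 5 of *Esrp2*, whose reads may likewise have been split. Totals were 17435133 to 18252330 per library.

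In edgeR 4.0.16, filterByExpr with a minimum count of 10 and a minimum total of 15 kept 13075 genes, which were scaled by TMM and compared by the quasi-likelihood test with genotype as the sole term. A gene was called at 1.5-fold or more with a p under 0.05 after Benjamini-Hochberg adjustment. Fold changes and intervals are from this fit, and CPM uses the TMM scaled library sizes. Log2 CPM for pattern likeness used a prior count of 2. Lengths are those of the longest protein-coding GENCODE M21 transcript. Promoters, overlaps and neighbours come from RefSeq tables of GRCm38.p6, whose coordinates are not those of the deposited counts. R 4.3.3, limma 3.58.1, DESeq2 1.42.0, Python 3.11.15 and matplotlib 3.10.9 were used, and the functions were tested on simulated data.

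The members, the gene and marker lists and the motifs were chosen with earlier results of these data known. Named were all 9 members, of each pathway list up to 4 genes past both thresholds in each direction by adjusted p and the 2 most abundant, of each marker list the 3 most abundant and, where most were called, the 2 with the smallest adjusted p, and the 3 genes nearest to the most abundant synthase, binding gene and breakdown gene. Other genes were named after their values were seen: those of small counts of calls, *Cemip2*, and neighbours of members. Alternatives were other scalings, filters, tests and thresholds, unrounded counts, a replicate block, and leaving out each library in turn. Shares in CPM not divided by length, and shares without each library, were added after seeing the data. Some listed genes were not analysed here.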

Additional observations from a re-analysis of the deposited data

How the results depend on the processing

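*Has2*, *Hyal1* and *Cemip* were called under every scaling, filter and test and without any 1 library, except that *Has2* was lost in the test against a 1.5-fold change, which left 0 members lower, and the members called lower ranged from 1 to 3 when 1 library was left out, the 3 being reached without *Aff3ir-ORF2-/-* replicate 2 by *Vcan* and *Tnfaip6*. Of the pathway genes, 13 rose, and 6 did with a 2-fold threshold and 6 in the test against 1.5-fold. Of these genes 3 fell, and 1 did with at least 10 counts in every library, 1 in the test against 1.5-fold and 2 to 6 with 1 library left out. Over all genes 2822 were called, 1420 with a 2-fold threshold and 1493 in the test against 1.5-fold. Scalings moved the median log2 fold change of all genes by at most 0.0377. In CPM not divided by length, *Has2* made 76.36% of the synthase sum in WT and 54.62% in *Aff3ir-ORF2-/-* libraries, and *Cemip* 62.03% and 87.8% of the breakdown sum.

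The sign turned for some genes that did not pass the test. With 1 library left out, *Cd44* ran from -0.1425 to 0.0936, *Gusb* from -0.0654 to 0.0135, *Fbln2* from -0.0458 to 0.0939, *Msn* from -0.0138 to 0.0715, *Krt19* from -0.4315 to 0.0613, *Krt18* from -0.0724 to 0.2003, *Itpripl2* from -0.1333 to 0.104, *Thsd7a* from -0.0955 to 0.1354 and *Selenoh* from -0.1857 to 0.0511. With upper quartile and total count scaling *Gusb* was at 0.019 and 0.01 and *Thsd7a* at 0.0252 and 0.017, and *Thsd7a* was at 0.0015 with at least 10 counts in every library. The cause was not tested.

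Same-numbered libraries did not deviate together (correlations of 0.039, 0.042 and 0.015), so the numbers were not taken to pair the samples. With the replicate number as a block, 2845 genes were called and *Has2* was at -1.06. The block changed no member's call, and among the other named genes it brought *Tek* past the threshold and took *Pdgfrb*, at 0.5829, under the fold threshold. Depth limits *Has3*, *Hyal3*, *Hyal6* and *Lyve1*, with at most 23 counts in a library.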
